A study of Homo sapiens with 2 samples.

Results

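SR proteins, the kinases that phosphorylate them and the heterogeneous nuclear ribonucleoproteins (hnRNPs) were compared between Huh7 cells with and without knockdown of PPIL1. Huh7 is an established human hepatocellular carcinoma line, and PPIL1 is a cyclophilin-type prolyl isomerase of the spliceosome. The set held 50 genes of the 19927 in the count table, listed by function but chosen with earlier results of these data known. It comprised 12 SR proteins, 7 kinases, 4 other proteins rich in arginine and serine, 22 hnRNPs, 3 polypyrimidine tract-binding (PTB) proteins and 2 poly(C)-binding proteins. The control group was 1 library of cells with a control hairpin, labelled WT in its genotype field. The knockdown group was 1 library of cells with 1 short hairpin RNA against PPIL1. How the hairpins were delivered, and whether cells were cloned, is not given in the sources used here.

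SR proteins bind exonic enhancers through RNA recognition motifs and recruit the splicing machinery through domains rich in arginine-serine repeats. CLK, SRPK and DYRK kinases phosphorylate those repeats, which governs where SR proteins reside and when they act. Many hnRNPs and PTB proteins bind splicing silencers and oppose exon inclusion. Genes of these families commonly hold down their own output by splicing in a poison exon or keeping an intron, which yields transcripts that are degraded or kept in the nucleus. The values here are sums over all transcripts of a gene and do not separate such isoforms.

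Counted reads came to 41015345 in shControl and 41165401 in shPPIL1. PPIL1 had 1505 and 104 reads, or 6.79% of the control level (5.51 to 8.29%), the direction of the labels. All 9 hepatocyte markers examined were present (summed FPKM 10895 and 11310, 7 higher and 0 lower by the rule given next), with albumin (ALB) at 3203 and 3270 FPKM (reads per gene length and library size) and AFP at 4564 and 4612. Of 13 markers of other cell types 4 passed the filter, with KRT19 the highest at 137 and 126 FPKM, and 3 (COL1A2, KRT5, KRT7) had 0 reads in both libraries. Of those 4, 3 were lower (KRT19, CD68 and PECAM1, with ratios of 0.907, 0.921 and 0.843) and 0 higher. The 13 summed to 161 and 148 FPKM, a ratio of 0.916 by reads (0.890 to 0.942). KRT19 alone held 7808 of their 10024 control reads, so the sum mostly follows that gene. COL1A1, the other kept marker, had a ratio of 1.11 with an interval that included 1 (0.973 to 1.27). The summed ratio lay in the direction of the SR proteins given below, and the part of these markers in the ratios was not tested. Less RNA of a gene per cell and fewer cells that express it cannot be told apart in these bulk values.

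Each ratio below is the shPPIL1 library over the shControl library after scaling for library size, with an exact 95% interval that covers counting error only. With 1 library per group no replicate check and no test between conditions was possible. A gene was counted as lower or higher when its interval lay wholly below or above 1. Of 12540 genes with at least 1 CPM (counted reads scaled to library size) in either library, 26.4% were lower and 24.6% higher by this rule (3316 and 3087 genes, or 2866 and 3551 when scaled by library totals). Among the 9076 whose reads in the pair of libraries summed to 1000 or more, the shares were 30.2% and 26.6%. Members were abundant, and HNRNPLL was the only kept member below that sum.

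The set leaned towards lower expression in the knockdown library, by small factors. Of the 49 members kept, 30 (61.2%) were lower, 6 (12.2%) higher and 13 had an interval that included 1. Lower and higher shares were 26.4% and 24.6% over all kept genes, and 30.2% and 26.6% over those with 1000 reads or more. The members had a median log2 ratio of -0.07, against 0.00 for all kept genes. At 1.2-fold or more, 6 members were lower and 0 higher, against 9.52% and 8.32% of all kept genes, so members past 1.2-fold were near the background among lower genes. At 1.5-fold or more, 0 members stood on either side, against 2.22% and 2.02%. Reads on all members together went from 630144 to 602691, a ratio of 0.940 (0.936 to 0.943).

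**Figure D1:**
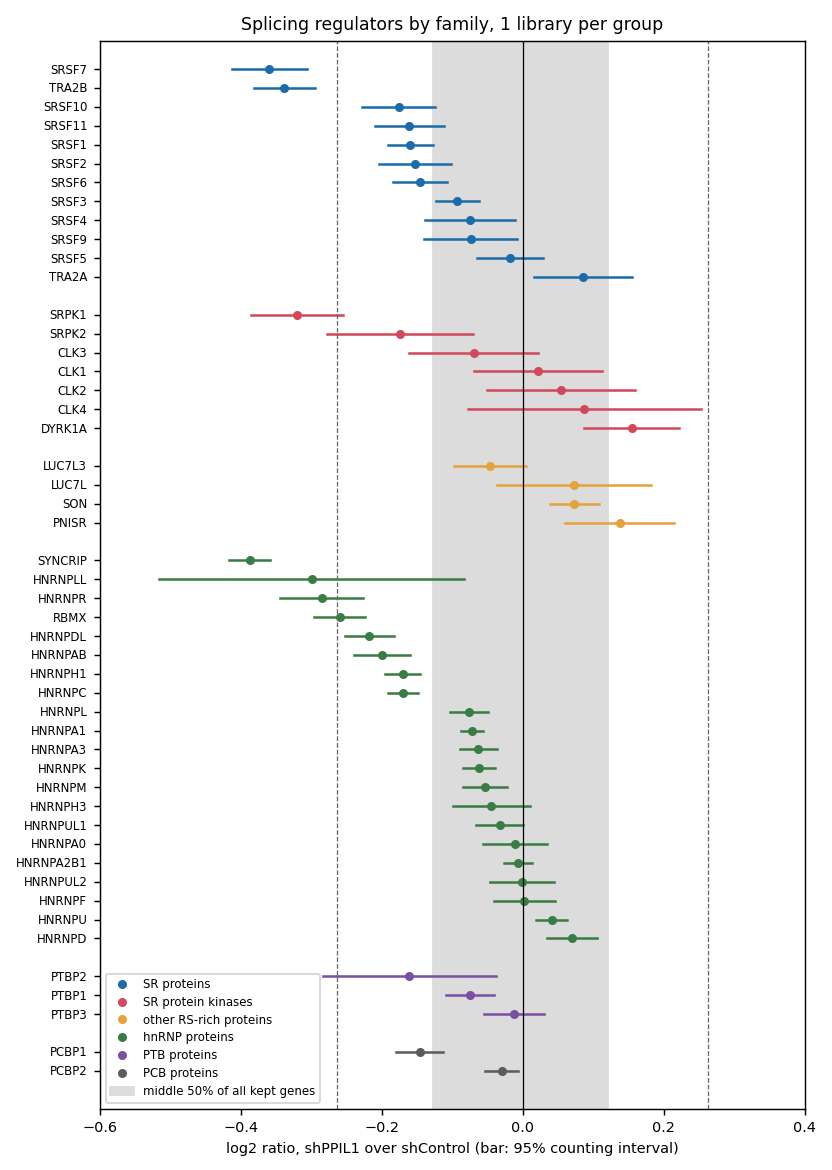
Log2 ratio of each of the 49 kept members (shPPIL1 over shControl, x axis) with its 95% counting interval, grouped by family. The grey band is the middle 50% of all kept genes, dashed lines mark 1.2-fold, and the points of SR proteins run from -0.36 for SRSF7 to 0.09 for TRA2A.

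SR proteins were the family with the largest downward median among the 6. Of 12 genes, 10 (83.3%) were lower, 1 (TRA2A, 8.33%) higher and 1 (SRSF5) had an interval that included 1. Lower and higher shares over all kept genes were 26.4% and 24.6%, and the SR proteins had a median log2 ratio of -0.15. Their summed reads went from 100289 to 92103, a ratio of 0.902 (0.894 to 0.910). Per length, SRSF5 had the highest control level at 127 FPKM and SRSF4 the lowest at 17.6 FPKM.

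SRSF7 was the lowest SR protein. It is a zinc-knuckle SR protein that shuttles between nucleus and cytoplasm and links splicing to polyadenylation and mRNA export. SRSF7 lies on chromosome 2 from 38743599 to 38751494 (GRCh38). Its reads numbered 6432 with the control hairpin and 5102 with the PPIL1 hairpin, at 79.1 and 62.5 FPKM. The ratio was 0.779 (0.751 to 0.809), a log2 ratio of -0.36 with 6.25% of kept genes below it. SRSF3, a close relative, had 17667 and 16858 reads and a ratio of 0.937 (0.918 to 0.958). SRSF3 therefore stood nearer to equal expression, and SRSF3 reads per SRSF7 read went from 2.75 to 3.30, a 1.203-fold change (1.15 to 1.26) that does not depend on library scaling.

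TRA2A and TRA2B, the human homologues of Drosophila Transformer-2 and binders of GAA-rich enhancers, lay on opposite sides of equal expression. TRA2B (chromosome 3, 185914558 to 185938014) had 9634 and 7755 reads, or 56.9 and 45.6 FPKM, a ratio of 0.791 (0.767 to 0.815). TRA2A (chromosome 7, 23504780 to 23531981) had 3231 and 3490 reads, or 39.3 and 42.3 FPKM, a ratio of 1.06 (1.01 to 1.11). The pair moved towards equal levels, with TRA2A at 40.9% of their summed FPKM with the control hairpin and 48.1% with the PPIL1 hairpin. TRA2A reads per TRA2B read were 1.34-fold higher (1.27 to 1.42), the largest shift among 17 pairs of related members compared.

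The other SR proteins had ratios from 0.885 to 0.987, and the interval of SRSF5 included 1. SRSF1, the founding SR protein once called SF2/ASF, had 16587 and 15116 reads (ratio 0.895, 0.876 to 0.915). SRSF2, an SR protein of nuclear speckles also called SC35, had 6503 and 5955 reads (log2 ratio -0.15, ratio interval 0.868 to 0.932). SRSF6, a relative of SRSF4, had 11452 and 10538 reads (0.904, 0.880 to 0.928). The intervals of SRSF1, SRSF2 and SRSF6 overlapped, and these genes were not compared with each other directly. SRSF10, an SR protein that acts as a repressor when dephosphorylated, had a ratio of 0.885 (0.854 to 0.917), and SRSF11 had 0.894 (0.865 to 0.925). SRSF4 and SRSF9 were nearer to 1, with intervals from 0.909 to 0.993 and from 0.908 to 0.994, and both counts as lower were lost when scaled by library totals. SRSF5, with 7442 and 7478 reads, had a ratio of 0.987 (0.956 to 1.02). Exons of SRSF2 and SRSF9 lie under exons of a gene on the other strand (MFSD11 over 36.7% and GATC over 46.2% of exon bases), and the strand setting of the counting is not given. Without both, 8 of 10 SR proteins were lower, with a median of -0.15.

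The promoters of SRSF7 and TRA2B, the 2 SR genes past 1.2-fold, and of SYNCRIP, the lowest hnRNP gene, are shown because these genes stood lowest in the set. The windows are RefSeq sequences of GRCh38.p14, from 250 bases before to 50 after a start site, read 5′ to 3′ along the gene. For SRSF7, 1 of its 2 windows is shown, the one with motif matches, and the other held 0 of the 5 motifs. Capitals mark the motifs searched on both strands, an NRF1 core (GCATGCGC) and a TATA box (TATAAA) in SRSF7 and an E-box (CACGTG) in SYNCRIP. In the TRA2B window 0 of the 5 motifs searched were found.
SRSF7, chr2:38751312-38751611, minus strand: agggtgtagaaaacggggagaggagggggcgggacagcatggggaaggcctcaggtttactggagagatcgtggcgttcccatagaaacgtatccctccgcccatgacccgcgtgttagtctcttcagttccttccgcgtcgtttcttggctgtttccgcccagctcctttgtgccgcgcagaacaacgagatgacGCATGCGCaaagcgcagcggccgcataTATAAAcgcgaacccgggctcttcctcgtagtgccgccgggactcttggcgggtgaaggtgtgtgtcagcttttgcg
TRA2B, chr3:185937965-185938264, minus strand: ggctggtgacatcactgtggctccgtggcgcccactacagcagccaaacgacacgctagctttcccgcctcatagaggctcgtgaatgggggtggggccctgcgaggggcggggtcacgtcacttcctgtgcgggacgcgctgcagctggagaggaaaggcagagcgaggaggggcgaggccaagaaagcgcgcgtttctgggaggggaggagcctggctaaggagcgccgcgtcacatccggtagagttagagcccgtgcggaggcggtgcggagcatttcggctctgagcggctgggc
SYNCRIP, chr6:85643821-85644120, minus strand: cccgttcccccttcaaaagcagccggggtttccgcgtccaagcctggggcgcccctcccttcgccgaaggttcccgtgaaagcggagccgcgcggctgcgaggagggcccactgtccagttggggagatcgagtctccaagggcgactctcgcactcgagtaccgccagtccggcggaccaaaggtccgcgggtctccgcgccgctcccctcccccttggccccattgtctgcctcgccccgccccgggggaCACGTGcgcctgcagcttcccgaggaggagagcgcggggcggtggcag

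The 5 motifs were the E-box CACGTG, the CCAAT box CCAAT, the ETS motif CCGGAAG, the NRF1 core GCGCATGC and the TATA box TATAAA, on either strand. Windows were found for 47 members (71 windows), without TRA2A, HNRNPA1 and SRSF2. The E-box stood in 13 of the 71 windows (18.3%), against 7.26% of the 35116 windows searched. Those windows belong to 27305 genes and were not limited to kept genes, whereas the members were abundant. By gene, 12 of 47 members (25.5%) had an E-box, against 8.77%. Shares for the others were 38.0% against 34.6% for CCAAT, 14.1% against 10.3% for ETS, 4.23% against 3.05% for the NRF1 core and 15.5% against 11.5% for the TATA box. The 11 kept members with an E-box had a median log2 ratio of -0.03, and the 35 kept members without one had -0.08. For the TATA box (10 members) these medians were -0.17 and -0.06, and for the NRF1 core (3 members) -0.18 and -0.06. They lay closer together for the CCAAT box (23 members, -0.06 and -0.07) and for ETS (10 members, -0.05 and -0.08). A match is a description of letters and no evidence of binding.

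Kinases of SR proteins were lower about as often as genes at large. Of 7 genes, 2 (28.6%) were lower (SRPK1, SRPK2), against 26.4% of all kept genes, 1 (14.3%) was higher (DYRK1A), against 24.6%, and 4 (CLK1 to CLK4) had an interval that included 1. The median log2 ratio was 0.02, and summed reads went from 15106 to 14754 (ratio 0.960, 0.938 to 0.982).

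SRPK1, the main cytoplasmic SR protein kinase that licenses import into the nucleus, had 4182 reads with the control hairpin and 3409 with the PPIL1 hairpin, at 23.4 and 19.0 FPKM. Its ratio of 0.801 (0.765 to 0.838) was the lowest among the kinases. SRPK2, its relative, had 1609 and 1451 reads and a ratio of 0.886 (0.825 to 0.952). SRPK1 reads per SRPK2 read stood at 0.904 of the control value (0.831 to 0.983).

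The CLK kinases phosphorylate SR proteins inside the nucleus, and CLK1 and CLK4 are known for retaining introns in transcripts that stay nuclear. CLK1 had 1961 and 2026 reads (ratio 1.02, 0.953 to 1.08) and CLK4 had 581 and 628 (1.06, 0.947 to 1.19). CLK2 had 1436 and 1518 reads (1.04, 0.966 to 1.12), and CLK3, the CLK with the highest FPKM, had 1983 and 1923 (0.953, 0.894 to 1.02). Each interval included 1, and these depths leave room for changes of up to 1.19-fold in CLK4. DYRK1A, a dual-specificity kinase that also phosphorylates splicing factors, had 3354 and 3799 reads, or 6.82 and 7.70 FPKM. Its ratio of 1.11 (1.06 to 1.17) was the highest of all 49 members.

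The other arginine-serine-rich proteins were the only family with members higher and none lower. Of these 4 genes 2 (50%) were higher, against 24.6% of all kept genes, and 0 lower, against 26.4%. A family of 4 is too small to set apart from those shares. PNISR, a nuclear speckle protein, had 2568 and 2875 reads (log2 ratio 0.14, ratio interval 1.04 to 1.16). SON, a large scaffold of nuclear speckles needed for splicing of weak introns, had 12873 and 13780 reads (1.05, 1.03 to 1.08). LUC7L and LUC7L3, relatives of a yeast U1 snRNP subunit, had intervals that included 1. LUC7L had 1327 and 1420 reads (1.05, 0.975 to 1.13), and LUC7L3 had 6331 and 6238 (0.968, 0.935 to 1.00). The median of the 4 was 0.07, and their summed reads had a ratio of 1.03 (1.02 to 1.05).

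**Figure D2:**
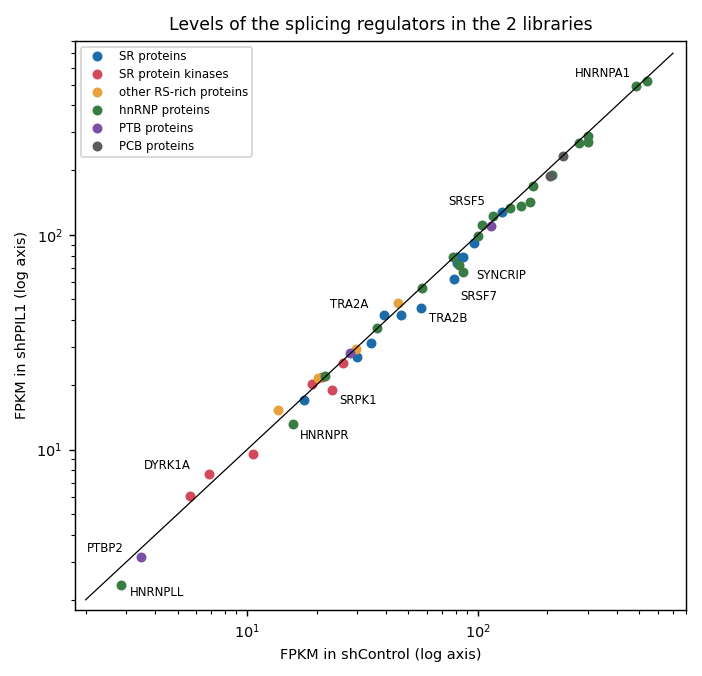
FPKM of the 49 kept members in the shControl library (x axis) and the shPPIL1 library (y axis), both on log axes, with the line of equal levels. Members span from 2.83 (HNRNPLL) to 540 (HNRNPA1) FPKM in the control, and SYNCRIP, SRSF7, TRA2B, SRPK1, HNRNPR and HNRNPLL lie farthest below the line.

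The hnRNPs were lower on balance, with the larger shifts in a few members. Of 21 kept genes, 14 (66.7%) were lower, 2 (HNRNPU and HNRNPD, 9.52%) higher and 5 had an interval that included 1. Lower and higher shares over all kept genes were 26.4% and 24.6%, and the hnRNPs had a median log2 ratio of -0.06. Their summed reads were 1.03% of the control library and 0.982% of the knockdown library, a ratio of 0.940 (0.936 to 0.944).

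SYNCRIP was the lowest of all members. It encodes hnRNP Q, which binds mRNA in translation and transport as well as in splicing. SYNCRIP (chromosome 6, 85607784 to 85643870) had 20975 reads with the control hairpin and 16318 with the PPIL1 hairpin, at 86.6 and 67.1 FPKM. The ratio was 0.764 (0.749 to 0.780), with 5.37% of kept genes below it. HNRNPR, the closest relative of SYNCRIP, was also lower, at 5107 and 4266 reads (0.821, 0.788 to 0.855). Both members of this subfamily were thus past 1.2-fold, and HNRNPR reads per SYNCRIP read differed by 1.07-fold (1.03 to 1.12).

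HNRNPLL (chromosome 2, 38561969 to 38602928), which controls exon choice in lymphocytes and is scarce here, had 393 and 325 reads, or 2.83 and 2.33 FPKM. Its ratio of 0.812 carried a wide interval (0.699 to 0.944). HNRNPL, its abundant relative, had 22681 and 21889 reads and a ratio of 0.948 (0.931 to 0.966). RBMX, or hnRNP G, stood just short of 1.2-fold, with 13648 and 11602 reads (0.835, 0.815 to 0.856).

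HNRNPD and HNRNPDL, related genes that lie near each other on chromosome 4, differed in direction. HNRNPD, also called AUF1, a binder of AU-rich elements, had 12710 and 13575 reads (ratio 1.05, 1.02 to 1.08). HNRNPDL, whose gene keeps its own level down by splicing in its 3′ UTR, had 14308 and 12523 reads (0.860, 0.839 to 0.881). HNRNPD reads per HNRNPDL read were 1.22-fold higher in the knockdown library (1.18 to 1.26). HNRNPAB, a further relative, went the way of HNRNPDL with 10974 and 9723 reads (0.870, 0.847 to 0.895).

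Ratios of the 6 hnRNPs of highest FPKM ran from 0.889 (HNRNPH1 and HNRNPC) to 0.995 (HNRNPA2B1), and 5 of them were lower. HNRNPA1, a general splicing repressor and the highest member per length, had 540 and 521 FPKM and a ratio of 0.951 (0.941 to 0.962). Its value is uncertain, since 55.4% of its transcript windows match pseudogenes or other copies. HNRNPA2B1 had 485 and 490 FPKM and a ratio of 0.995 (0.982 to 1.01). HNRNPC, which guards against inclusion of Alu exons, was lower with 38393 and 34737 reads (0.889, 0.876 to 0.902), and so was HNRNPH1, a binder of G-runs (0.889, 0.874 to 0.904). HNRNPF, which binds the same G-runs, was not (1.00, 0.972 to 1.03), and HNRNPH1 reads per HNRNPF read stood at 0.887 of the control value (0.857 to 0.918). HNRNPU, a scaffold of chromatin and RNA, had 32691 and 34224 reads (1.03, 1.01 to 1.04), with 15.6% of its exon bases under COX20 on the other strand. HNRNPUL1 and HNRNPUL2, its relatives, had ratios of 0.977 (0.955 to 1.00) and 0.999 (0.968 to 1.03). The first of them was lower by a bound that rounds to 1, and its call was lost with every other library scaling tried. The remaining members (HNRNPA0, HNRNPA3, HNRNPH3, HNRNPK and HNRNPM) had ratios from 0.957 to 0.993.

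HNRNPH2 could not be assessed. Its row held 0 control reads and 1 knockdown read, and it was the only member that failed the filter. The gene (chromosome X, 101408222 to 101414133) overlaps the read-through gene RPL36A-HNRNPH2, which had 0 reads in both. RPL36A, a ribosomal protein gene that every cell uses and that the same read-through gene spans, had 6 and 5 reads, whereas its relative RPL36AL had 3135 and 3000. How reads that fall in overlapping genes were counted is not given, so the level of HNRNPH2 cannot be read from this row.

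Among the PTB proteins, repressors that bind pyrimidine-rich tracts, 2 of 3 (66.7%) were lower (PTBP1 and PTBP2), against 26.4% of all kept genes. The 3 had a median log2 ratio of -0.07. PTBP1, the form of most non-neuronal cells, had 14499 and 14011 reads, or 113 and 109 FPKM (ratio 0.949, 0.928 to 0.972). PTBP2, the neuronal form whose exon PTBP1 represses, had 1137 and 1035 reads, or 3.48 and 3.15 FPKM (0.894, 0.821 to 0.974). PTBP3 had 8970 and 9053 reads (0.992, 0.963 to 1.02). PTBP1 was thus 97.0% of the FPKM of the PTBP1 and PTBP2 pair with the control hairpin and 97.2% with the PPIL1 hairpin. Of the poly(C)-binding proteins, which also stabilise mRNAs, PCBP1 had 14574 and 13401 reads (0.903, 0.882 to 0.925). PCBP2 had 29951 and 29855 reads (0.979, 0.964 to 0.995), a call lost with library totals and with upper quartile scaling. Exons of MAP3K12 on the other strand cover 18.8% of the exon bases of PCBP2. PCBP1 has no intron, as has HNRNPA0 (7789 and 7869 reads, ratio 0.993, 0.962 to 1.02), and these intronless members lay on both sides of the set's median.

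**Figure D3:**
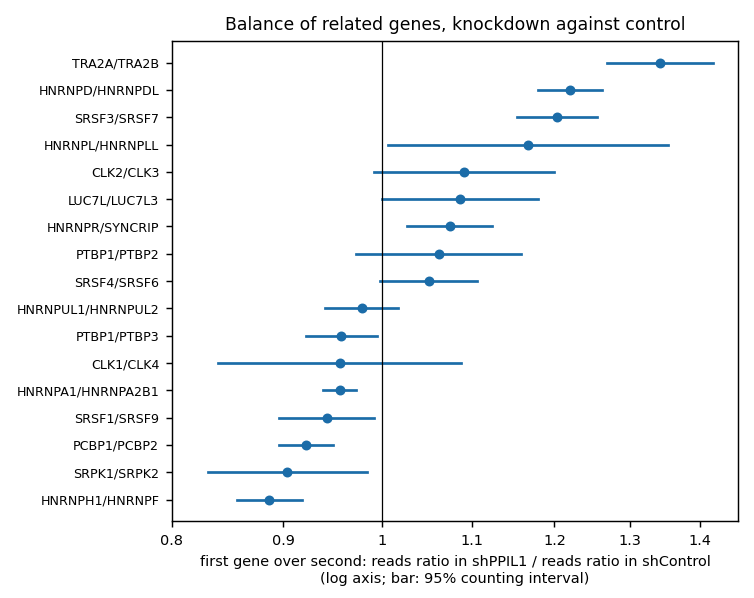
Balance within 17 pairs of related members: reads of the first gene per read of the second in the shPPIL1 library, divided by the same in the shControl library (x axis, log scale), with 95% counting intervals. TRA2A over TRA2B stands highest at 1.34, and the interval excludes 1 for 11 pairs, with no background from unrelated pairs computed.

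Library scaling cancels within a pair, so these shifts in balance are independent of it. Of the 17 pairs, 11 had an interval that excluded 1. Those that differed by 1.2-fold or more numbered 3, namely TRA2A with TRA2B, HNRNPD with HNRNPDL and SRSF3 with SRSF7. The share among pairs of unrelated genes was not computed, so the 11 have no background. Of single genes with 1000 reads or more in both libraries together, 30.2% were lower and 26.6% higher. CLK1 with CLK4, CLK2 with CLK3, PTBP1 with PTBP2, SRSF4 with SRSF6, LUC7L with LUC7L3 and HNRNPUL1 with HNRNPUL2 had intervals that included 1. For CLK1 per CLK4 the interval ran from 0.840 to 1.09, so a shift within it was not detectable at this depth.

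Annotated transcript types, which the choice of members did not use, differed between the families. In GENCODE release 29, all 12 SR protein genes have at least 1 transcript annotated for nonsense-mediated decay, and SRSF7 has 6. Over the kept members the share was 75.5%, against 43.3% of 12107 kept genes with a coding transcript. The other arginine-serine-rich proteins, with a median log2 ratio of 0.07, also had such a transcript in all 4 genes. The share was 71.4% in the kinases, 66.7% in the hnRNPs, 50% in the poly(C)-binding proteins and 33.3% in the PTB proteins. Retained-intron transcripts were annotated for 73.5% of members and 58.1% of kept genes, from 85.7% of the kinases and 83.3% of the SR proteins down to 33.3% of the PTB proteins. Members with an annotated decay transcript had a median log2 ratio of -0.07 and those without one -0.03, while over all kept genes both medians were 0.00. For retained introns the order was the other way round, at -0.07 with and -0.15 without one. These annotations say which isoforms exist and nothing on their levels in these libraries.

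A 6-base motif, GATCAT, is known from a search of these same libraries to be more common in the 3′ UTRs of genes with lower ratios, so it was looked up in the members as a description only. Among kept genes, carriers in the 3′ UTR had a median log2 ratio of -0.03 and genes with the motif in neither 3′ UTR nor coding sequence 0.02. Of the 49 members, 13 (26.5%) carried it in the 3′ UTR, against 23.8% of kept genes, with a median of -0.06. The 22 members with the motif in neither part had a median of -0.08, and the 14 with it in the coding sequence alone had -0.06. SRSF7, HNRNPR, HNRNPLL and HNRNPDL were among those 22. SYNCRIP and RBMX (1 coding site each), SRPK1 (2 coding sites) and TRA2B (1 site in the 3′ UTR and 2 coding) were among the carriers, so of the 6 members past 1.2-fold 3 carried the motif and 3 did not. By family, carriers in the 3′ UTR and members with neither had medians of -0.15 and -0.12 in the SR proteins and -0.01 and -0.17 in the hnRNPs. Among the kinases SRPK2, the only carrier in the 3′ UTR, stood at -0.17 and DYRK1A, the only one with neither, at 0.15. The sites in the 3′ UTRs of the 4 SR genes that carry it are given with the motif in capitals, 3 of them in SRSF6, as DNA letters of the GENCODE transcripts.
SRSF2: aatggtaaatctGATCATatctacatgtat
SRSF3: tggtttgaaatgGATCATacgaggcatgta
SRSF6, site 1: tttctgctgaaaGATCATtatgtttaacag
SRSF6, site 2: gataattggttaGATCATacttgtaaattt
SRSF6, site 3: agagatttctatGATCATataaaaatgcct
TRA2B: cacagttctcttGATCATgatgtctcaaat

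Of these 4 genes TRA2B was the lowest at 0.791, and SRSF6 had a ratio of 0.904. TRA2B carries 2 further copies in its coding sequence. The part of the motif in these ratios was not tested.

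Other genes of the pathway gave a reference for the families, with the highest and lowest ranked by the interval bound nearest to 1. Among 56 core spliceosome proteins, all kept, 24 (42.9%) stood lower and 6 (10.7%) higher, against 26.4% and 24.6% of all kept genes. Their median of -0.06 was close to that of the hnRNPs. USP39, a tri-snRNP factor, and CDC40, a step II factor, were lowest (0.747, 0.714 to 0.782, and 0.746, 0.700 to 0.796), and SNRPF and SNRPD3, Sm ring proteins, highest (intervals 1.04 to 1.17 and 1.03 to 1.09). Of 81 kept genes for other splicing regulators, 24 (29.6%) stood lower and 17 (21.0%) higher (median -0.02), near the shares of all kept genes. With library totals as the scaling, 17 were lower and 19 higher (median 0.00). FUBP1 (0.734, 0.691 to 0.779) and TIAL1 (0.860, 0.829 to 0.892) were lowest, and the cold-inducible CIRBP (1.36, 1.28 to 1.44) and SCAF4 (1.22, 1.17 to 1.29) highest. Whether the SR proteins differ from these lists beyond the spread between cultures was not tested, as each group is 1 library.

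Among 21 kept genes for other kinases, phosphatases and importers of SR proteins, 5 (23.8%) stood lower and 7 (33.3%) higher (median 0.05). Shares of all kept genes were 26.4% and 24.6%. CDK13, a kinase of RNA polymerase II and a binding partner of splicing factors (1.21, 1.15 to 1.28), and DYRK2 (1.18, 1.13 to 1.22) were highest. TNPO2, a nuclear import receptor of hnRNPs, was lowest (0.778, 0.729 to 0.829), followed by the phosphatase subunit PPP1CC (0.931, 0.907 to 0.955). TNPO3, the import receptor of phosphorylated SR proteins, had 3182 and 3300 reads (1.02, 0.970 to 1.07).

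**Figure D4:**
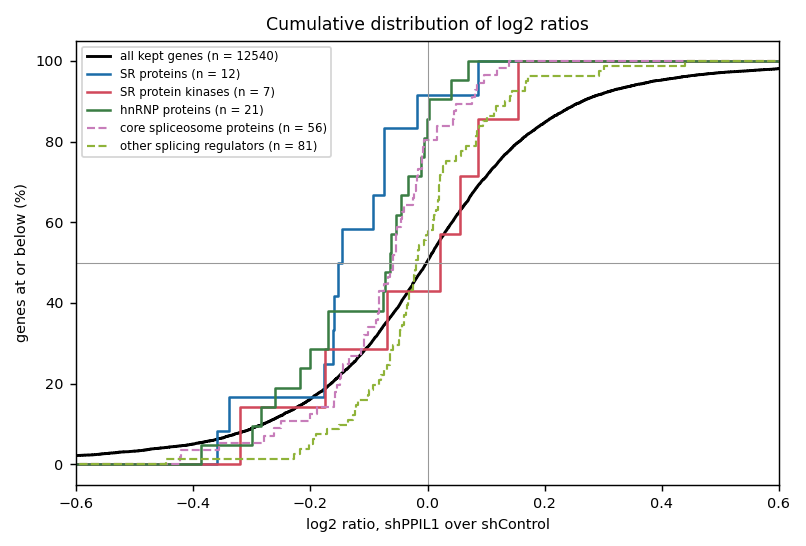
Share of genes (y axis, percent) at or below each log2 ratio of shPPIL1 over shControl (x axis), for all kept genes, 3 member families and 2 lists of other splicing genes. The curve of the 12 SR proteins crosses 50% at -0.15 and that of all 12540 kept genes at 0.00, and all of these families stay within 1.5-fold.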

How the data were processed

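Polyadenylated RNA was sequenced in 2 libraries of Huh7 cells. The authors deposited raw counts per gene (19927 rows) and FPKM values per gene and library, on genome build hg38 per the submitters' processing notes. No aligner, counter, annotation or strand setting is named in the sources used here. Columns were tied to samples by the column names in the labels, and 7 further columns of per-sample counts were not used. Gene lengths implied by the deposited FPKM values and counts were whole, to 0.001 bases, for 99.9% of genes above 0. Those lengths set the FPKM levels, and ran from 1152 bases in SRSF9 to 11984 in DYRK1A.

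TMM factors (edgeR 4.0.16) of 0.993 for shControl and 1.01 for shPPIL1 set the scaling, and genes with at least 1 CPM in either library were kept. Ratios carry exact Clopper-Pearson 95% intervals (SciPy 1.17.1). Pair ratios carry 95% intervals of the log odds ratio. Reads carry no molecular identifiers and so need not be independent molecules, and intervals cover counting error only. Steps were checked on simulated libraries with counting error alone, the error that the intervals assume. That check holds no spread between cultures and cannot speak to it. Gene coordinates and promoters are from RefSeq (GRCh38.p14), and transcripts, exons and 3′ UTRs from GENCODE release 29, using the basic coding transcript with the longest coding sequence. Members were taken to share sequence when at least 20% of 100-base windows of that transcript, taken every 10 bases, matched a gene elsewhere.

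The members and lists were chosen with earlier results of these data known. Members named with full values were those past 1.2-fold, the extremes and the most abundant of each family, and pairs of relatives. Of every other list, up to 2 higher and 2 lower genes were named by the interval bound nearest to 1, and TNPO3 was added after its value was seen. Alternatives covered scaling (totals, DESeq2 1.42.0 size factors, upper quartile), filters, FPKM values, summed reads and left-out members.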

Additional observations from a re-analysis of the deposited data

How the results depend on the processing

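With 1 library per group, no replicate could be left out. No paired analysis was possible because each group holds 1 sample. Of the family and list results under the alternatives, 199 held and 17 moved (counts by over 1.5 times, medians by more than the median counting error of their genes). The 2 filter settings gave 30 of the held results each and kept nearly the same genes, so those could hardly move. Smaller shifts in counts were scored as held, as for other splicing regulators with library totals (24 lower and 17 higher to 17 and 19). Among members with an interval excluding 1, 0 single values changed direction. Other scalings moved 1 to 4 members across their interval bound, HNRNPUL1 under all 3, PCBP2 under 2, and SRSF4 and SRSF9 with library totals. With library totals, and with upper quartile scaling, 1 poly(C)-binding protein was lower, not 2. Library totals put the median of all kept genes at 0.02 and HNRNPA2B1, whose interval had included 1, at 0.01 on the log2 scale.

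The 2 alternatives that follow were chosen after seeing the data. Without the 4 members under exons of the other strand (HNRNPU, PCBP2, SRSF2, SRSF9), 1 hnRNP was higher, and 1 poly(C)-binding protein was left, which was lower with a median of -0.15. Leaving out the 27 GATCAT carriers, and so testing fewer genes, 14 of 22 members were lower and 3 higher. This left 5 lower and 0 higher of 6 SR proteins, and 8 lower and 1 higher of 11 hnRNPs (median -0.17). It also left 1 higher of 3 other arginine-serine-rich proteins, 1 PTB protein, lower (-0.16), and 1 kinase, DYRK1A (0.15), so 0 kinases were lower. Alternatives without members that share sequence were not run for the other lists. For CLK4, depth limited the interval to 0.947 to 1.19.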

Other observations

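Gene rows that share sequence with hnRNP members had counts of their own. HNRNPA1 and HNRNPA3 were the members with at least 20% of their windows found elsewhere (55.4% and 35.0%), mostly in pseudogenes. HNRNPA1L2, a copy of HNRNPA1, had 368 and 366 reads in shControl and shPPIL1, and HNRNPA1L3 had 519 and 581. RBMXL1, a copy of RBMX without introns, had 872 and 747 reads beside the 13648 and 11602 of RBMX. HNRNPCL1, a copy of HNRNPC, had 0 and 2 reads. The treatment of reads that match several copies is not given, and the split between a member and its copies was not tested.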
